A study of Mus musculus with 60 samples.

Results

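The enzymes that build and sulfate chondroitin sulfate were followed across 8 mouse tissues, in a line labelled St6galnac2 knockout, in a line labelled B4galnt1/B4galnt2 double knockout, and in their controls. The 10 genes were chosen by what their enzymes do: Csgalnact1, Csgalnact2, Chsy1, Chpf, Chst11, Chst12, Chst13, Chst3, Chst7 and Chst15. Of these, 9 were on the array, each with 1 probe set, among 909 named genes measured by 963 named probe sets. Chst13, a chondroitin 4-O-sulfotransferase, matched no probe set and is not described further.

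Chondroitin sulfate is a long sugar chain of alternating glucuronic acid and N-acetylgalactosamine, attached to proteoglycan core proteins through a short linkage region that it shares with heparan sulfate. The first N-acetylgalactosamine commits the linkage to chondroitin, polymerases then extend the chain, and sulfotransferases place sulfate on carbon 4 or carbon 6 of the N-acetylgalactosamine. The sulfate comes from the donor PAPS. The chains are abundant in cartilage and in the brain's extracellular matrix, and in lymphoid, renal and connective tissue they decorate secreted and cell-surface proteins.

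Total RNA was hybridised to 60 custom Affymetrix arrays from 18 animals. In the St6galnac2 line, 3 knockout (KO) and 3 wild-type (WT) mice gave thyroid, lymph node and brain. Intestine came from 2 KO and 3 WT mice of that line (9099 among the WT). In the B4galnt1/B4galnt2 line, 5 double-knockout (DKO) mice gave kidney, mammary gland and thymus and 3 of them testes. Their WT controls gave kidney (4), mammary gland (2), thymus (3) and testes (3). Outside controls labelled C57 gave brain and small intestine, 3 animals each, with no sex stated. Both sexes were present in every group of both lines except testes and the WT thymus, which came from males; the pair of WT mammary glands held 1 male and 1 female, and of the 7 animals with a mammary gland array 4 were male. The labels give no age, no allele design, no statement that controls are littermates, and no other modification carried by them.

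Values are log2 expression values from robust multi-array averaging. They ran from 2.11 to 14.07, and array medians from 5.29 to 5.76. Before anything was compared, each array was set against the mean of its labelled tissue over 900 probe sets of other genes. Of the 60 arrays, 4 stood apart from their label with a correlation under 0.3: a brain and an intestine array of WT mouse 9099, which correlated with each other's tissue, and the thymus arrays of WT mice N3738 and N3740. The other 56 correlated best with their own tissue and are the ones described here; results on all 60 are stated where they differ. Tissue labels were partly checkable: Umod, a kidney tubule protein, was at 12.09 or higher in every kidney. The thymus-labelled arrays used were low for Ccl25 (4.40 to 4.85), a chemokine of thymic epithelium. Ccl25 and Dll4, the 2 measured of 8 thymus markers, summed to 6.155 to 6.442 on them, and were not read on the arrays left out. Each array was compared with others of its label, so the check cannot tell which thymus-labelled arrays go against the label. No marker of mammary epithelium, fat or muscle was measured. The targeted genes did not check the labels, since the position of their probes relative to the deletions is not given: St6galnac2 was not called lower in any KO tissue, and B4galnt1 and B4galnt2 were not called in any DKO tissue, while St6galnac2 was called 0.65 lower in DKO kidney. In a bulk tissue, fewer cells of a type and less RNA per cell cannot be told apart, and the line and its tissues cannot be told apart between the 2 lines.

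Upstream windows of 3 genes from RefSeq (GRCm38.p6) are shown because their genes carried the largest tissue or sex differences. Each holds the 250 bases before an annotated transcript start, 5′ to 3′ on the gene's strand, and capitals mark GGGCGG on either strand, the GC box. Chst7 lies at chrX:20059320-20059569 (plus strand), Chst11 at chr10:82985247-82985496 (plus strand) and Chst3 at chr10:60219261-60219510 (minus strand).
Chst7: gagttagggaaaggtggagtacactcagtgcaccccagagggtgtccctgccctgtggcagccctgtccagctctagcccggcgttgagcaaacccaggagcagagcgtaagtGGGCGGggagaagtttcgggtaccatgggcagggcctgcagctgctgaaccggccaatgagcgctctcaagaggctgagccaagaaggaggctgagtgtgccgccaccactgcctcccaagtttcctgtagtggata
Chst11: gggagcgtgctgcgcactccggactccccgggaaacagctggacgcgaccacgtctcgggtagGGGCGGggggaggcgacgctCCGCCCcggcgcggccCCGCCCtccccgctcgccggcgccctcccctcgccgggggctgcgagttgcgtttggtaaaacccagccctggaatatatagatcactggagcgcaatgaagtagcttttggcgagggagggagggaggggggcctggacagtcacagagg
Chst3: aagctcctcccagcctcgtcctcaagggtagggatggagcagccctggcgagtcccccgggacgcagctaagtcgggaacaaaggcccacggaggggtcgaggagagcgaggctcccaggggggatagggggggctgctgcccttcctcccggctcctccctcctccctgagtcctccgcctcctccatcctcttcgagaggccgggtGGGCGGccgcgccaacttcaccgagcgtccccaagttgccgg

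Of the 10 genes, 9 had a promoter window in the RefSeq table, with 11 windows in all, each running from 250 bases before to 50 after the start; Csgalnact1 was not in it and Chst13 was. The GC box was present in 10 of the 11, against 35.7% of all 32851 windows. Windows of these genes held 55.0% to 71.7% G and C, against a median of 52.7% over all windows. The E-box CACGTG was present in 1 window, that of Chsy1 (7.15% of all windows), and the TATA element TATAAA in 0 (13.6% of all). The half-site TGTTCT, recognised by the androgen and glucocorticoid receptors and searched after the sex differences were seen, was present in 0 of the 11 (19% of all). Both strands were searched, and of these 4 motifs only the GC box occurs in the printed windows. A match describes letters, and absence of letters from a 300-base window says nothing about the factors.

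The plot of every animal's value shows that the 9 genes had different tissue orders. The fit set each tissue against the 7 others averaged, and a call needed both an adjusted p under 0.05 and a log2 difference of 1 or more. Over the 72 pairs of gene and tissue, 10 were called higher, against a background of 10.8% of pairs over all probe sets, and 6 were called lower, against 9.84%. The tissue means of a gene spanned a median of 2.49 log2 units over the 9 genes, against 1.89 over all 909. Mammary gland had 0 calls in either direction (9.55% and 3.22% of all probe sets). None of the 9 genes was called higher in intestine (13.8%) or thyroid (6.44%), or lower in lymph node (8.72%), brain (14.6%), thymus (5.19%) or kidney (9.03%). Of 63 neighbouring pairs of ordered tissues, the animals' values were separate in 5, and the share over all named genes was not counted.

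**Figure D1:**
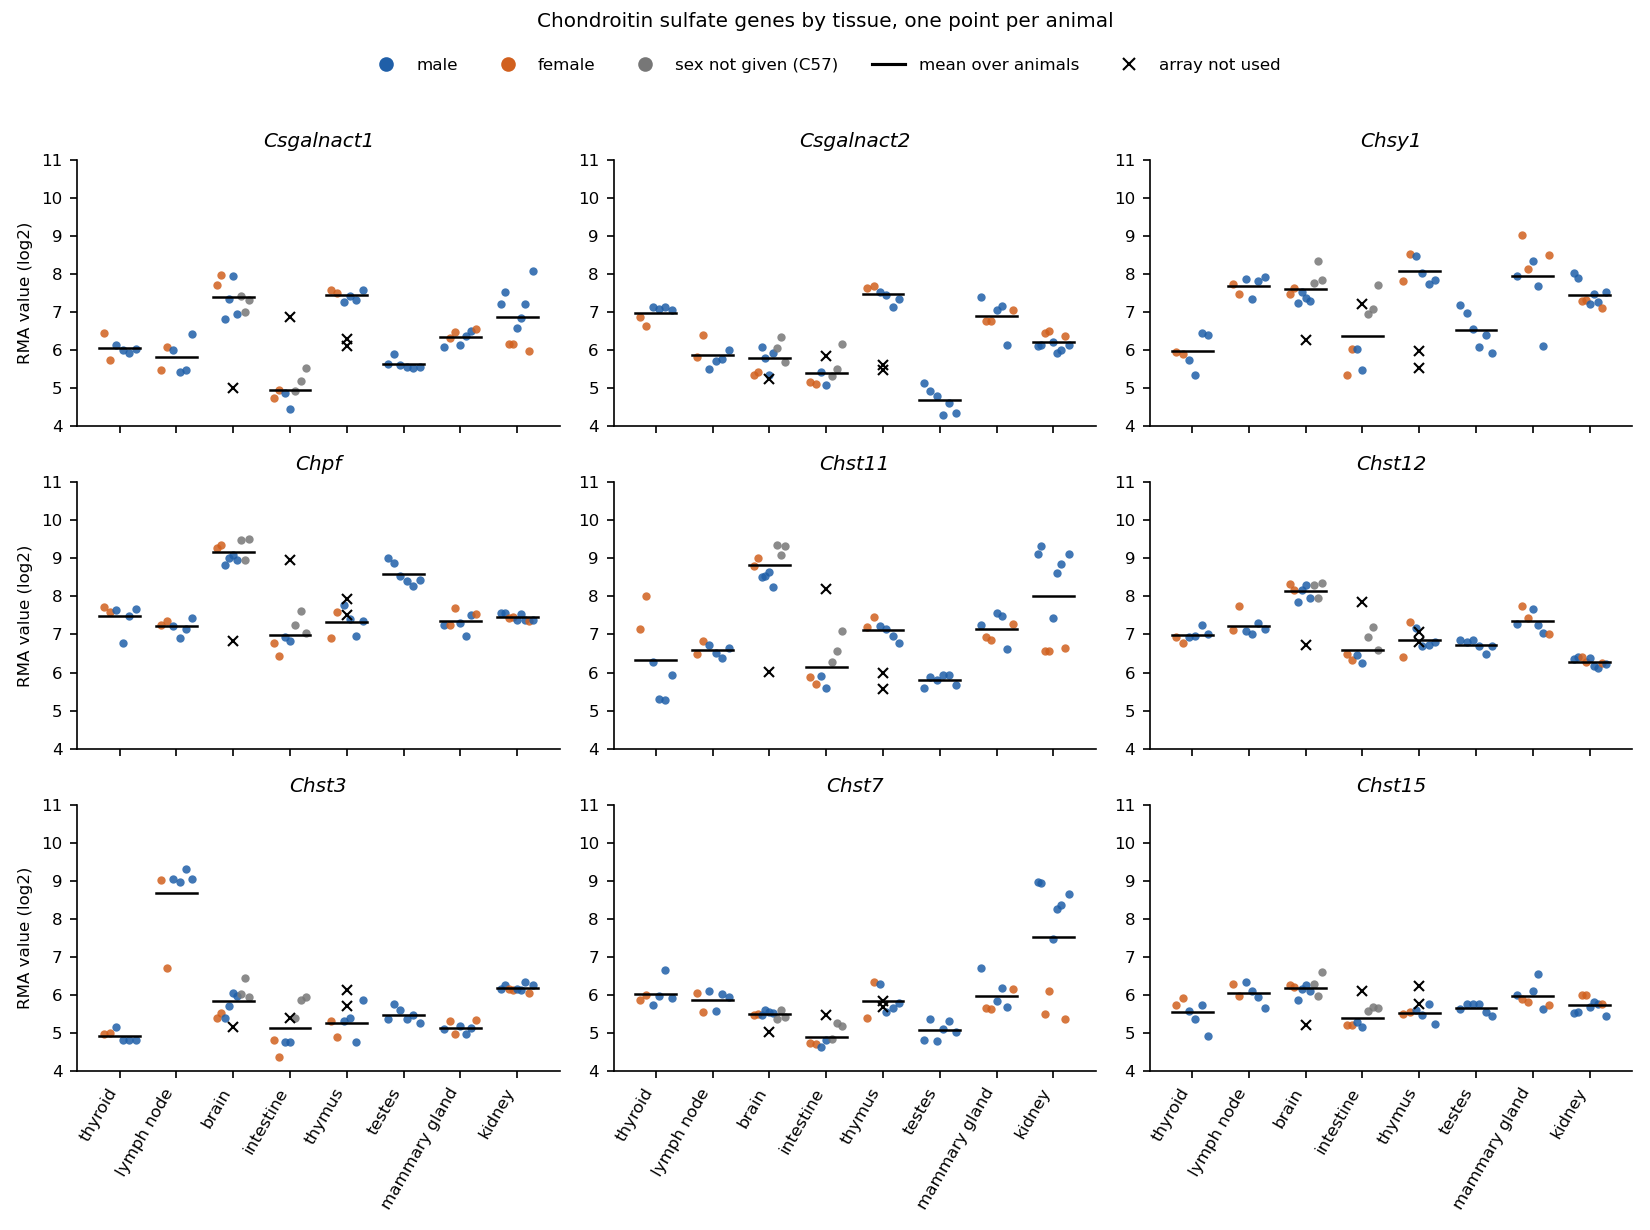
RMA log2 value (y axis) of each of the 9 genes in each of 8 tissues (x axis), one point per animal, coloured by sex, with a black line at the mean and a cross for the 4 arrays that were not used. Chst3 stands at 6.71 to 9.30 in lymph node and at 6.45 or lower elsewhere, and Chst7 and Chst11 split by sex in kidney.

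Csgalnact1 (chr8:68356781-68735621) and Csgalnact2 (chr6:118107452-118139140) encode the N-acetylgalactosaminyltransferases that start the chain. Csgalnact1 was highest on the thymus-labelled arrays (lowest 7.26, median 7.47, highest 7.59, n = 6) and in brain (6.82, 7.34 and 7.99, n = 9). It was lowest in intestine (4.46, 4.93 and 5.53, n = 7). On the thymus-labelled arrays of N3738 and N3740, which were left out, it was 6.12 and 6.28. Its difference from the other tissues was +1.29 ± 0.16 (SE) in thymus, +1.23 ± 0.13 in brain and -1.56 ± 0.15 in intestine. All were called by limma with an adjusted p of 3.1e-09 or less. Backgrounds for such calls were 8.62% higher in thymus, 17% higher in brain and 10.7% lower in intestine. The first 2 lay near the size threshold: the thymus difference was 0.97 with all arrays as labelled, and the brain difference 0.97 in wild-type animals only. All 7 intestine values lay below all values of thymus, brain and kidney. By tissue means over 8 tissues, the genes most like Csgalnact1 were Smpd1 (Pearson r 0.942) and Vegfb (0.877); here and below, tissue means share animals and these correlations are a description.

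Csgalnact2 was also high on the thymus-labelled arrays used, which were low for Ccl25, but not in brain. On those of N3738 and N3740, which were left out, Csgalnact2 was 5.47 and 5.61. On the 6 used it stood at 7.14 to 7.69 (median 7.50), just above the highest thyroid value of 7.136. It overlapped mammary gland, where the highest value was 7.386. The difference of +1.49 ± 0.12 was called (adjusted p = 1.9e-13, limma). The genes with the most similar tissue means were Pdgfra (r 0.949), a receptor of fibroblasts, and Cd34 (0.938). Connective-tissue markers were high on the same arrays: Dcn averaged 12.57, Lum 10.19 and Pdgfra 10.18 in thymus, 12.57, 10.19 and 10.08 in mammary gland, and 12.05, 9.12 and 9.96 in thyroid. Their summed level (6 of 9 measured) was 13.34 to 13.67 on the 6 thymus-labelled arrays and 12.52 to 13.66 in mammary gland, and its part in the Csgalnact2 level was not tested. In testes Csgalnact2 was lowest, at 4.29 to 5.12 (median 4.70, n = 6), with a called difference of -1.69 ± 0.12 (background 20.1% lower in testes). In brain it averaged 5.78 ± 0.36 (SD, n = 9) with a difference of -0.44 that was not called. The within-array difference Csgalnact1 minus Csgalnact2, which says nothing of absolute ratios, was 1.61 ± 0.75 in brain and -0.93 ± 0.28 (SD, n = 6) in thyroid.

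Chsy1 (chr7:66109492-66173798) is a chondroitin polymerase, and Chpf (chr1:75474569-75479471) its partner in chain polymerisation. Chsy1 was lowest in thyroid, at 5.35 to 6.44 (median 5.93, n = 6), and its difference of -1.42 ± 0.21 was called (background 7.06% lower); set against the other 3 tissues of the same line only, it was -0.98, under the size threshold. Its highest mean was in thymus, 8.07 ± 0.35 (SD, n = 6), which was not called. In mammary gland the 7 animals spread from 6.11 to 9.01, and the lowest was DKO male N5895, whose array correlated less with its tissue than the other mammary arrays did (0.641). The genes with the closest tissue means were Hyal1 (r 0.825) and Notch3 (0.811).

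Chpf was highest in brain, where the 9 animals lay between 8.83 and 9.52 (median 9.09), and next in testes, between 8.28 and 9.001 (median 8.48, n = 6). The 2 tissues overlapped each other, and every testes value lay above every value of the other 6 tissues, whose highest was 7.77. Both differences were called, +1.67 ± 0.09 in brain and +1.02 ± 0.11 in testes (background 8.41% higher). The testes value is at the edge of the size threshold: it was 0.99 with all arrays as labelled or without mouse 9100, 0.97 without N3740 and 0.94 without N3738. Hes3 (r 0.984) and Magi2 (0.977) were closest in tissue means.

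Chst11 (chr10:82984440-83195904) and Chst12 (chr5:140505569-140525238) are chondroitin 4-O-sulfotransferases. Both were called higher in brain, Chst11 by +2.10 ± 0.23 and Chst12 by +1.29 ± 0.08. Chst11 ran from 8.25 to 9.35 there (median 8.79, n = 9) and Chst12 from 7.86 to 8.35 (median 8.18), and no animal in another tissue reached the lowest brain value of Chst12. The lowest tissue of Chst11 was testes (5.60 to 5.93, n = 6; difference -1.38 ± 0.27, called). The lowest tissue of Chst12 was kidney (6.11 to 6.40, n = 9), with a difference of -0.84 that did not reach the size threshold. The closest tissue means were those of Huwe1 (r 0.975) and Lman2l (0.924) for Chst11, and of Pkd1 (0.918) and G3bp2 (0.887) for Chst12.

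Chst3 and Chst7 place sulfate on carbon 6. Chst3 (chr10:60181527-60222114) had the widest range of tissue means of the 9 genes, 13.5-fold, and lymph node stood apart. Values there were 9.05, 9.06 and 6.71 in the WT animals and 9.02, 9.30 and 8.97 in the KO animals. The lowest, from WT female 9094, still lay above the highest value of any other tissue, 6.45 in a brain. The difference from the other 7 tissues was +3.26 ± 0.16, called with an adjusted p of 7.8e-22 (background 11.3% higher), and was +3.64 without mouse 9094. That array had less of the lymphoid markers: Ccr7, a homing receptor of lymphocytes, was 6.24 against 9.28 to 10.01 in the other 5, and the summed level of the 3 measured of 5 B-cell markers was 9.60 against 11.55 to 12.03. The summed connective-tissue markers (6 of 9 measured) were 12.33 on that array against 11.26 to 11.61. The part of cell makeup in the Chst3 level was not tested. Chst3 was lowest in thyroid, 4.81 to 5.16 (difference -1.03 ± 0.16, called; -0.997 without mouse 9361 and -0.75 in females only, under the size threshold). In tissue means the gene most like it was Glycam1 (r 0.935), a mucin-like ligand of lymph node venules that L-selectin binds, then Il21r (0.917).

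Chst7 (chrX:20058963-20099991) averaged 7.51 ± 1.48 (SD, n = 9) in kidney and at most 6.02 in the other tissues. Kidney was called higher by +1.92 ± 0.24 (background 11.1% higher) and intestine lower by -1.08 ± 0.27 (-0.99 after quantile normalization, under the size threshold). Chst11 was also called higher in kidney, by +1.17 ± 0.23. For both genes the kidney spread was the largest of any tissue, and it divided by sex as described next. Chst15 (chr7:132235779-132323534), which adds a second sulfate to already 4-sulfated N-acetylgalactosamine, was called in 0 of 8 tissues; its tissue means ran from 5.40 in intestine to 6.19 in brain. Close to the tissue means of Chst7 were those of Renbp (r 0.974), which encodes renin binding protein, and closest to those of Chst15 were those of Sdc3 (0.828) and Psph (0.817).

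**Figure D2:**
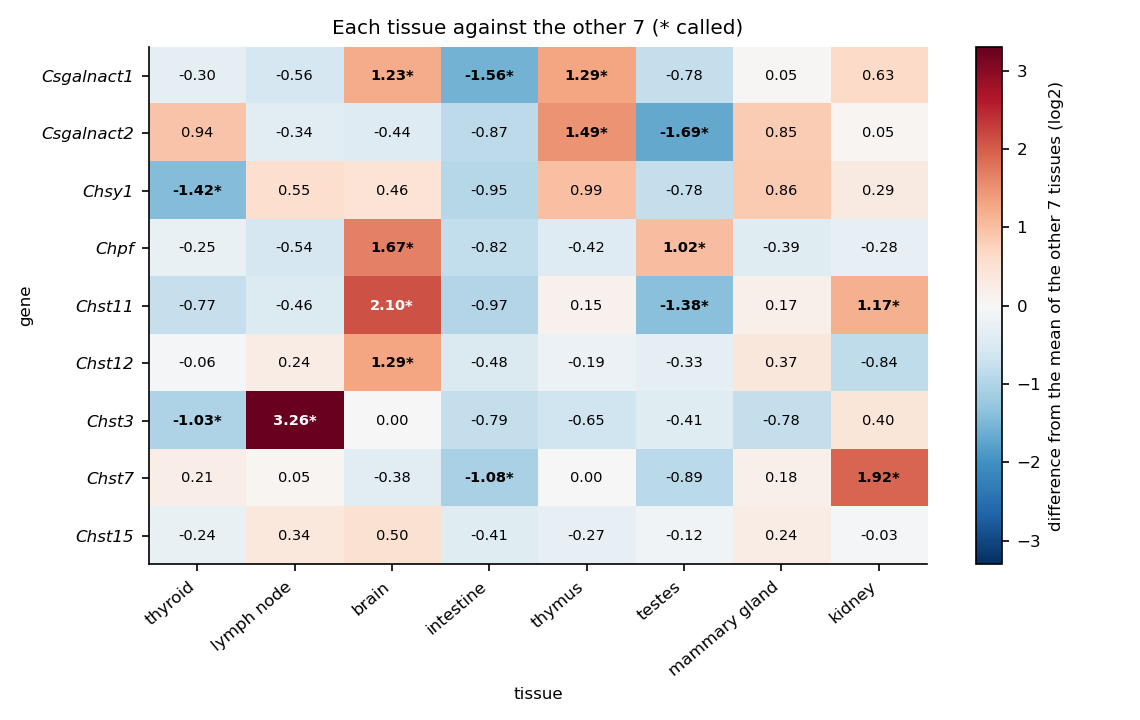
Log2 difference of each tissue (x axis) from the mean of the other 7 for each gene (y axis), coloured from blue (lower) to red (higher), with calls starred in bold. Chst3 in lymph node (+3.26) is the deepest red, and brain holds 4 of the 10 calls upward.

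In kidney, male mice had more Chst7, Chst11 and Csgalnact1 RNA than females, and less Csgalnact2. Chst7 was 8.96, 8.94 and 8.67 in WT males and 8.37, 8.26 and 7.46 in DKO males. It was 5.36 in the WT female and 6.10 and 5.50 in the DKO females. No male overlapped a female, and the fitted difference, adjusted for genotype, was +2.72 ± 0.27 or 6.58-fold (adjusted p = 0.00014, limma). Female kidneys lay within the range of the other tissues. In a fit of females alone, kidney Chst7 differed from the other tissues by 0.05, and kidney Chst11 was 0.62 lower.

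Chst11 was 9.11, 9.32 and 9.10 in WT males and 8.84, 8.61 and 7.43 in DKO males, against 6.65 in the WT female and 6.56 in both DKO females. The difference was +2.04 ± 0.27 or 4.12-fold (adjusted p = 0.0011). DKO male N5893 was the lowest male for both genes, and without it the differences were +2.94 and +2.32. Csgalnact1 was 7.22, 7.52 and 8.07 in WT males, 7.21, 6.83 and 6.59 in DKO males, and 5.97, 6.16 and 6.15 in females. Its difference was +1.07 ± 0.22 or 2.1-fold (adjusted p = 0.013). Csgalnact2 went the other way, at 5.93 to 6.20 in the 6 males and 6.38 to 6.51 in the 3 females, a difference of -0.37 ± 0.08 (adjusted p = 0.018).

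These 4 of 9 genes were called against 9.03% of all probe sets in the same comparison, and the same 4 did not overlap between the sexes, against 16.9%. Of the other 5, Chst15 was nearest to a call (-0.24 ± 0.07, adjusted p = 0.053). The calls of Chst7 and Chst11 held when each kidney animal was left out in turn. That of Csgalnact1 was lost without WT female N9686 (+0.72, adjusted p = 0.12), and that of Csgalnact2 without DKO female N5891 or N5892 (adjusted p = 0.076 and 0.089).

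Other genes of the pathway, and some related enzymes, were counted in the same comparison of kidneys, in which 9.03% of all probe sets were called. Galns, the lysosomal enzyme that removes the sulfate from carbon 6, was higher in males by 1.69 ± 0.13 (adjusted p = 2.6e-05), with 9.43 to 10.32 in males and 8.12 to 8.33 in females; it was the single call among 7 measured degradation genes. Among 8 donor genes, Papss2, which makes PAPS, was lower in males by 0.48 ± 0.12. The list of other enzymes held 7: Chsy3, Dsel, Chst14 and Ust, with Chst8, Chst9 and Chst10, sulfotransferases that act mainly on other glycans. Of these 7, Chst9 was lower in males by 0.78 ± 0.12. Of 18 core proteins, Bgn, Dcn, Srgn and Tgfbr3 were lower in males and 0 were higher. The 6 genes listed for the linkage and 7 heparan genes (polymerases and N-sulfotransferases) had 0 calls.

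Cell-type markers were read beside the sex difference. The summed connective-tissue markers (6 of 9 measured) were 11.38 to 11.72 in females and 10.88 to 11.25 in males, without overlap, and 2 of those markers, Dcn and Bgn, are the core proteins named above. The 2 measured of 6 endothelial markers summed to 8.61 to 8.62 in females and 8.02 to 8.58 in males, also without overlap. The 5 measured of 6 macrophage markers overlapped (7.54 to 7.66 and 7.43 to 7.78), as did the 2 measured of 8 kidney markers (12.27 to 12.49 and 12.10 to 12.29). The part of these shifts in the members' differences was not tested.

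In mammary gland of the same line, 0 of the 9 genes were called between the sexes (background 0.312%, 3 probe sets; 111 had an unadjusted p under 0.05). The smallest p belonged to Chst7 (+0.35 ± 0.16, adjusted p = 0.48, limma) and Chsy1 (-1.005 ± 0.55, adjusted p = 0.57). Chst7 was 6.71, 6.18, 5.84 and 5.69 in males and 6.16, 5.67 and 5.63 in females. Chst11 was 7.26, 7.49, 7.56 and 6.61 in males and 7.27, 6.94 and 6.84 in females. The makeup of these arrays varied: Prol1, the 1 measured of 4 markers of salivary or lacrimal gland, was 12.47 in DKO male N5895, 9.79 in DKO female N5892 and 9.74 in both WT animals, against 2.52 to 2.61 in the other 3 DKO animals. Its part in the mammary comparisons of sex and genotype was not tested. The sex difference was larger in kidney than in mammary gland by 2.37 ± 0.38 for Chst7 (adjusted p = 0.00048), 1.80 ± 0.35 for Chst11 (0.0030) and 1.23 ± 0.26 for Csgalnact1 (0.0056), 3 of 9 genes against 5.09% of all probe sets. Without N9686, the only WT female, just Chst7 kept this call. Without N5895, 5 genes were called, and the 5.09% is from the fit with all animals.

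**Figure D3:**
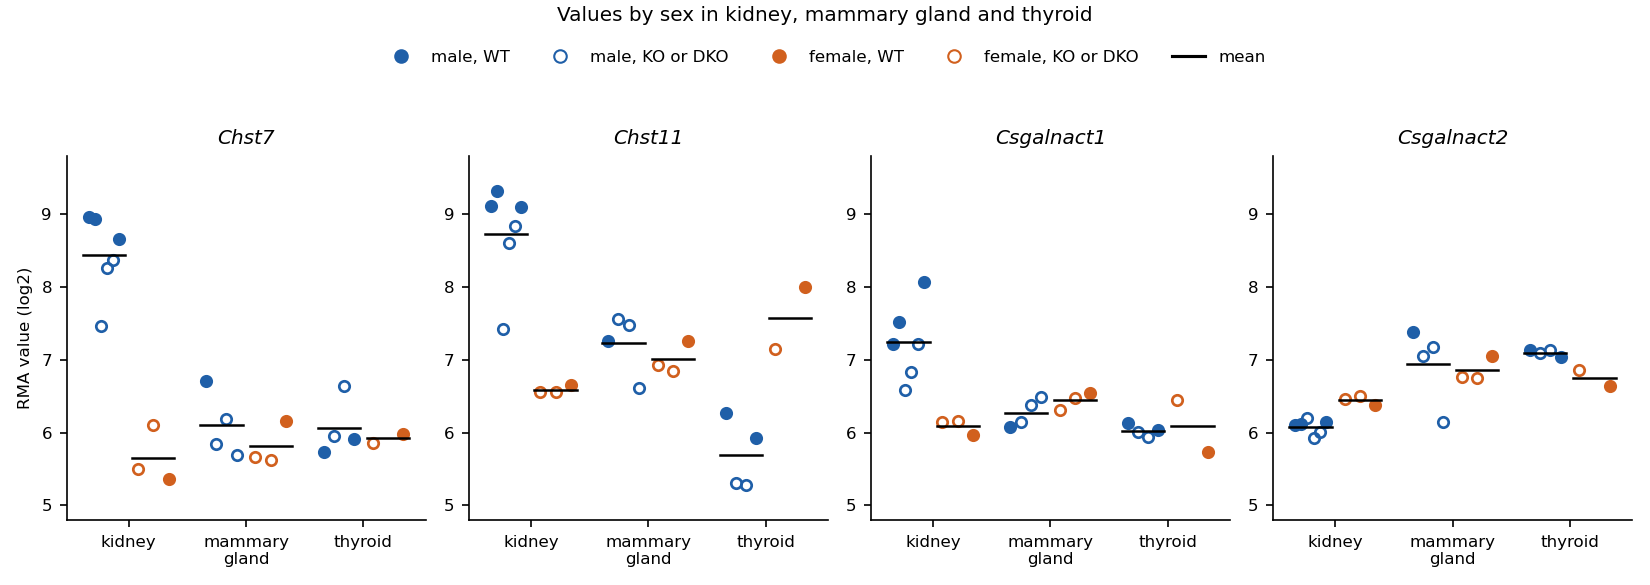
RMA log2 value (y axis) of 4 genes in kidney, mammary gland and thyroid (x axis), males in blue and females in orange, filled for WT and open for KO or DKO animals, with a line at each mean. Male kidneys hold Chst7 at 7.46 to 8.96 and female kidneys at 5.36 to 6.10, and in thyroid the Chst11 order of the sexes is turned.

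In thyroid of the St6galnac2 line the sexes differed in Chst11 in the opposite direction. It was 8.01 in WT female 9094 and 7.15 in KO female 9093, against 6.27 and 5.92 in WT males and 5.30 and 5.29 in KO males. The difference, male minus female, was -1.88 ± 0.18 (adjusted p = 0.00030, limma; 1 of 9 genes called, background 4.36%), and it was called with each animal left out. Csgalnact2 had the next smallest p (+0.35 ± 0.16, adjusted p = 0.37). The kidney difference exceeded the thyroid difference by 3.93 ± 0.39 for Chst11 (adjusted p = 1.7e-05) and by 2.58 ± 0.42 for Chst7 (adjusted p = 0.0014); Csgalnact2 (-0.72 ± 0.14) and Csgalnact1 (+1.14 ± 0.35, adjusted p = 0.049) were also called, 4 of 9 against 10.6%. The last 2 calls depended on single animals: that of Csgalnact1 was lost for most animals left out (adjusted p = 0.37 without 9093), and that of Csgalnact2 without 9094 (adjusted p = 0.060).

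Sex in thyroid rests on 2 females, and other values moved with it. Papss2 was 9.22 and 10.04 in females and 6.57 to 7.22 in males (-2.61 ± 0.21), and Papss1, the other PAPS synthase, was lower in males by 0.89 ± 0.18. Galns was 8.33 and 9.47 in females and 6.92 to 7.29 in males, again opposite to kidney. The largest sex difference of all probe sets in thyroid was Asgr1, a subunit of the asialoglycoprotein receptor, at 10.32 and 11.17 in females and 4.16 to 5.72 in males; it was named after its values were seen. Of 7 thyroid markers only Chga, a secretory-granule protein of endocrine cells, was measured, and it was 5.77 and 7.79 in the KO males against 12.73 to 13.06 in the other 4 animals. Acan, the 1 measured of 8 cartilage markers, was 5.12 and 5.71 in females and 4.65 to 5.11 in males. Summed connective-tissue markers overlapped (12.68 to 12.91 and 12.59 to 13.08). Sex and what was dissected cannot be told apart in these 6 arrays.

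**Figure D4:**
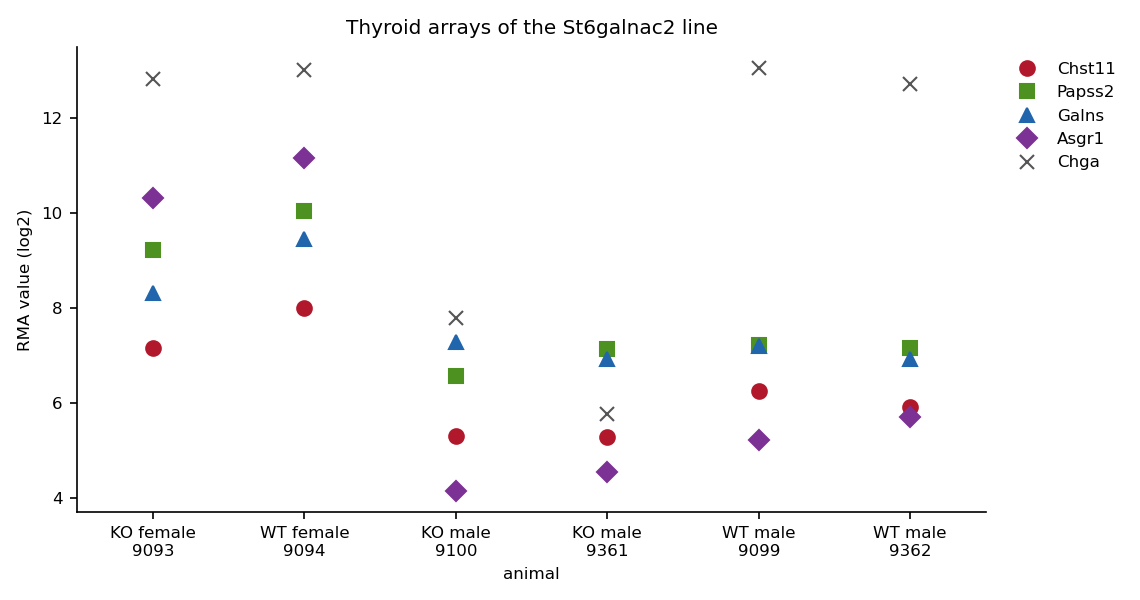
RMA log2 value (y axis) of Chst11, Papss2, Galns, Asgr1 and Chga in the 6 thyroid animals (x axis), labelled by genotype and sex; heights of different genes are not comparable. Chst11, Papss2, Galns and Asgr1 are highest in both females, and Chga is low in both KO males.

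In the other tissues with both sexes, lymph node, brain, intestine and thymus, 0 of 9 genes and 0 of 963 probe sets (0%) were called between males and females. Unadjusted p-values under 0.05 numbered 12 in lymph node, 119 in brain, 43 in intestine and 42 in thymus. In brain Chpf (-0.34 ± 0.10) and Chst11 (-0.42 ± 0.14) had the smallest p among the 9, and 2 of the 9 genes were called without KO male 9361, when 184 probe sets were. In lymph node Chst3 was +1.23 ± 0.52 and Csgalnact2 -0.36 ± 0.23 (adjusted p = 0.87 for both, limma). Without KO female 9093, which left 9094 as the only female, Chst3 was 2.35 higher in males there. The array of 9094 had Chst3 at 6.71 and less of the lymphoid markers, as described above. The smallest p belonged in intestine to Chpf (+0.28 ± 0.15) and Chst3 (+0.17 ± 0.17), and in thymus to Csgalnact2 (-0.28 ± 0.16) and Csgalnact1 (-0.21 ± 0.12).

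The genotype comparisons were made tissue by tissue, with sex as a covariate. In the St6galnac2 line 0 of 9 genes were called in any of the 4 tissues, with 0 of 963 probe sets called (0%) in each; unadjusted p-values under 0.05 numbered 42 in thyroid, 33 in lymph node, 18 in brain and 60 in intestine. The difference with the smallest p was Chst11 in thyroid, -0.82 ± 0.17 (adjusted p = 0.19), where KO animals were 7.15, 5.30 and 5.29 and WT animals 8.01, 6.27 and 5.92. Within each sex the KO values lay below the WT values, but the groups overlapped, and the KO males are the arrays low in Chga. A joint fit of the line's 4 tissues with a replicate block did call it (adjusted p = 0.031). Of the 963 probe sets, that joint fit called 1 in thyroid, 1 in lymph node and 4 in intestine. Chpf was next in thyroid (-0.31 ± 0.23, adjusted p = 0.99). In lymph node Csgalnact1 was 5.49, 5.49 and 5.41 in KO animals and 6.43, 5.999 and 6.08 in WT animals, without overlap (2 of 9 genes, background 10.7%), and the difference of -0.71 ± 0.18 was not called (adjusted p = 0.80). On the same arrays the summed connective-tissue markers were 11.26 to 11.53 in KO and 11.59 to 12.33 in WT animals, also without overlap. Prol1 was 11.08 in WT male 9362 and 5.12 in WT female 9094, against 2.61 in WT male 9099 and 2.41 to 2.78 in KO animals. Their part in the Csgalnact1 difference was not tested. Chst11 was next in lymph node (-0.27 ± 0.14, adjusted p = 0.80). In brain Chst12 was 8.32, 8.30 and 8.17 in KO animals and 7.96, 7.86 and 8.18 in WT animals, which overlapped (+0.26 ± 0.09), and Csgalnact2 was -0.32 ± 0.16 (adjusted p = 0.89 for both, limma). In intestine, with 2 animals a group, 5 of 9 genes did not overlap, against 36.2% of all probe sets, and the smallest p belonged to Chst11 (+0.25 ± 0.14, adjusted p = 0.86) and Chpf (+0.23 ± 0.15, adjusted p = 0.87). In thyroid and brain, with the sexes pooled, 0 of 9 genes were separate (7.27% and 6.54% of all probe sets).

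In the B4galnt1/B4galnt2 line 0 of 9 genes were called in kidney (background 0.104%), testes (0.312%), mammary gland (0%) or thymus (0%). Probe sets with an unadjusted p under 0.05 numbered 129 in kidney, 124 in testes, 97 in mammary gland and 27 in thymus. In kidney the smallest p belonged to Chst15, +0.24 ± 0.07 (adjusted p = 0.25), and Chst11 was -0.64 ± 0.26. In males alone, DKO kidneys had 8.84, 8.61 and 7.43 of Chst11 and WT kidneys 9.11, 9.32 and 9.10. These did not overlap, and by the values given above male DKO kidneys also lay below male WT kidneys for Chst7 and Csgalnact1. Among females the WT value lay below both DKO values for Chst7 and Csgalnact1, and above them for Chst11. The share of all probe sets separate within males was not counted. In mammary gland Chst7 was -0.67 ± 0.17 (adjusted p = 0.33) and Csgalnact2 -0.45 ± 0.29 (adjusted p = 0.66). A joint fit of the line with a replicate block called 55 probe sets in mammary gland instead of 0, still with 0 of the 9 genes. In testes Chpf was nearest (-0.36 ± 0.16, adjusted p = 0.40), then Chst11 (+0.17 ± 0.12, adjusted p = 0.52). Without WT male N9700 Chpf was among the genes of the 9 that were called, at -0.53 (adjusted p = 0.015, limma), and 205 of all probe sets were called. With the sexes pooled, groups did not overlap for 0 of 9 genes in kidney (3.32%), mammary gland (14.4%) and testes (13.7%) and for 4 in thymus (34%). Where a gene differs by sex, as in kidney, the pooled count cannot show a separation within a sex. Thymus had 1 WT array left, and its comparison assumes that this array varies like the DKO arrays. Chst3 was 5.86 on it and 4.75 to 5.39 in the DKO animals (-0.71 ± 0.31), and Chst15 5.24 and 5.46 to 5.77 (+0.37 ± 0.18, adjusted p = 0.99 for both, limma). Averaged over the 4 tissues of a line, 0 of 9 genes were called in the KO (background 0%) and 0 in the DKO comparison (0.519%), and 0 had an effect that differed between tissues (0% and 0.623%). The smallest p of the averages belonged to Chst11 (-0.19 ± 0.07) and Chst3 (+0.25 ± 0.18) in the KO and to Chst15 (+0.20 ± 0.09) and Chst3 (-0.20 ± 0.09) in the DKO comparison. For differences between tissues it belonged to Chst11 (adjusted p = 0.22) and Csgalnact1 (0.97) in the KO and to Chst3 (0.46) and Chst11 (0.57) in the DKO comparison.

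**Figure D5:**
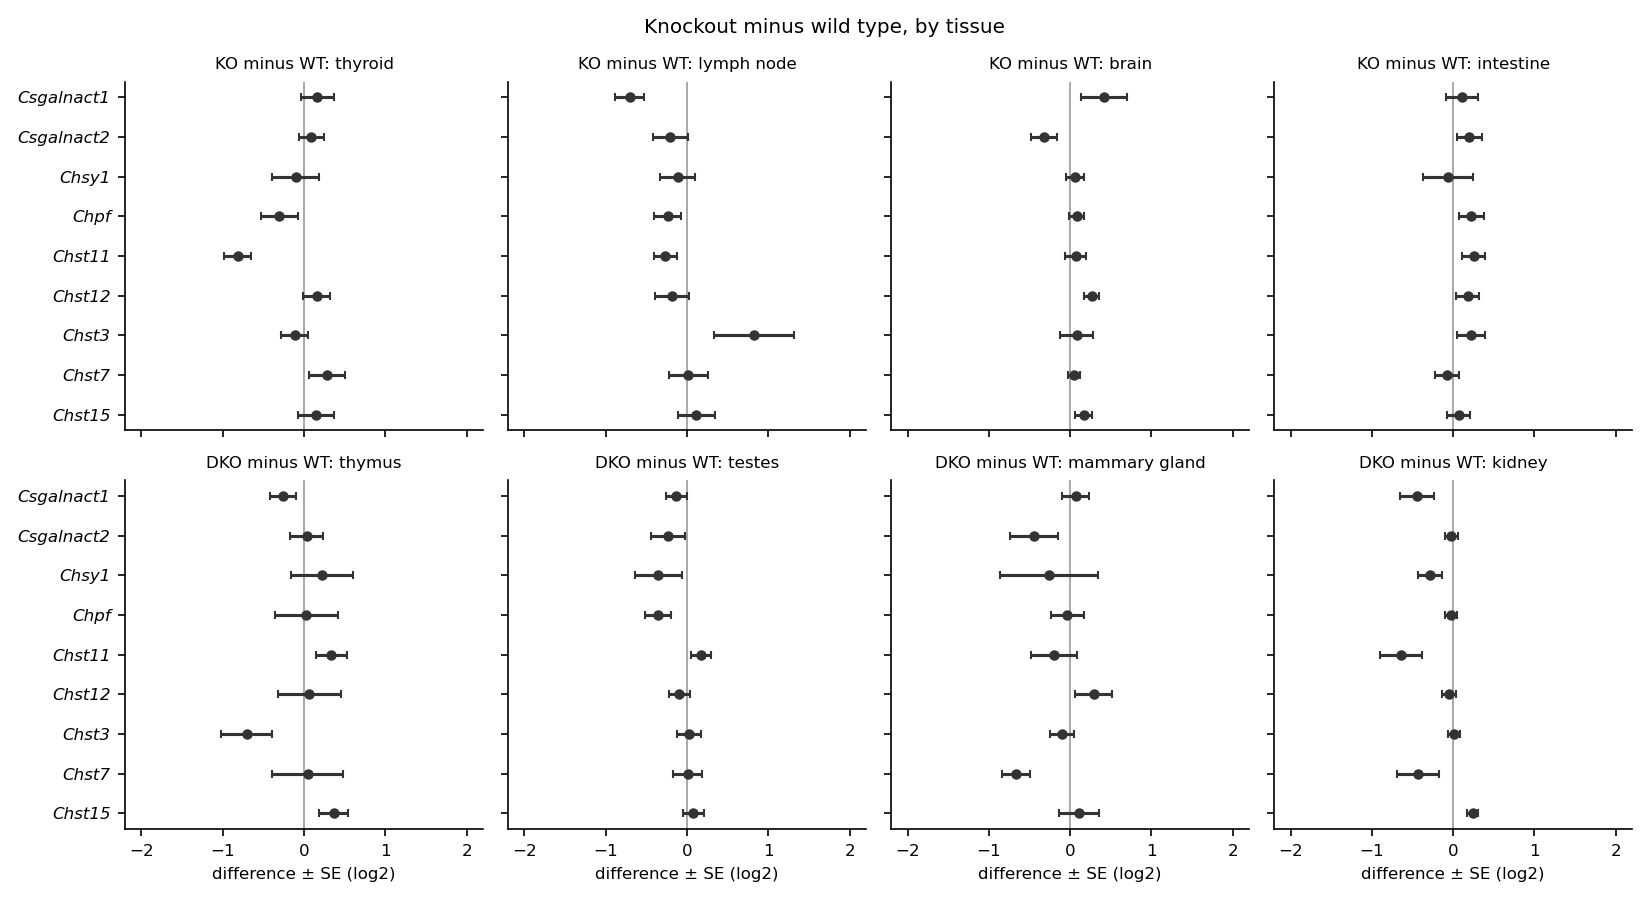
Fitted log2 difference, knockout minus wild type (x axis), with its standard error for each gene (y axis) in each tissue. Chst11 in thyroid (-0.82) and Csgalnact1 in lymph node (-0.71) have the smallest p of the 9 genes in their tissues, and 0 of the points were called.

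WT animals of the St6galnac2 line were also set against the C57 controls. In intestine the 9 genes had a median difference of -0.63, all below 0, with 0 called (background 0.104%, 1 probe set), against a median of -0.28 for all probe sets. Chsy1 was 5.49 and 6.02 in the line and 7.71, 7.09 and 6.94 in C57 animals (-1.49 ± 0.31, adjusted p = 0.13). Chst3 was 4.77 and 4.38 against 5.94, 5.86 and 5.39 (-1.15 ± 0.25, adjusted p = 0.13). Values did not overlap for 8 of the 9 genes, against 48.1% of all probe sets. The summed connective-tissue markers were 10.63 to 10.79 in the line and 11.04 to 11.19 in C57 animals, without overlap, and their part in the shift of the 9 genes was not tested. The labels read intestine for the line and small intestine for C57, so segment and line cannot be told apart. In brain 0 of 9 genes were called (0%, 246 unadjusted) and 2 did not overlap (33.4%). Chst11 was at -0.67 ± 0.21 (adjusted p = 0.15, limma) and Chsy1 at -0.60 ± 0.19. Without mouse 9094 Chst11 was called (-0.88, adjusted p = 0.044, limma), and the 0% is from the fit with all animals.

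Lists of other genes were counted in each tissue. They held 6 genes listed for the linkage, the 7 other enzymes named above, 7 heparan genes, 8 donor genes, 18 core proteins and 7 degradation genes. The linkage list includes B3gat2, a relative of the linkage enzyme B3gat3 that acts mainly on other glycans. The heparan list includes Ndst1 and Ndst2, which are N-sulfotransferases and not polymerases. Among the other enzymes, Chst8, Chst9 and Chst10 act mainly on glycans other than chondroitin. A list not mentioned for a tissue had 0 calls there. In kidney (background 11.1% higher, 9.03% lower) 5 donor genes were called higher, led by Papss2 (+3.38 ± 0.24), and 2 degradation genes, led by Arsb (+2.44 ± 0.12), which removes the sulfate from carbon 4. B3gat2 of the linkage list (+1.94 ± 0.11) and the N-sulfotransferase Ndst1 of the heparan list (+1.25 ± 0.09) were also higher there. Core proteins were lower in 4 cases, led by Cd44 (-2.44 ± 0.18), and of the other enzymes 1 was higher and 2 lower, led by Chst10 (-1.09 ± 0.09).

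Intestine (background 13.8% higher, 10.7% lower), where 0 of the 9 synthesis genes were called higher, also had 5 donor genes higher, led by Papss2 (+2.92 ± 0.27). There 5 core proteins were lower, led by Tgfbr3 (-1.31 ± 0.14), 3 other enzymes, led by Ust (-2.03 ± 0.14), a uronyl 2-O-sulfotransferase, and the heparan gene Extl2 (-1.28 ± 0.18); of degradation genes 1 was higher and 1 lower (Arsb, -1.22 ± 0.13). In brain (17% and 14.6%) 3 other enzymes were higher, led by Chst10 (+3.48 ± 0.09), which sulfates the HNK-1 epitope, 3 heparan genes, led by Extl2 (+2.42 ± 0.16), and 2 linkage genes, led by B3gat3 (+1.84 ± 0.08). Brain had 6 core proteins higher, led by Spock1 (+6.14 ± 0.06), and 6 lower, 1 donor gene higher and 2 lower, led by Slc35d2 (-1.69 ± 0.12), and 1 degradation gene higher (Arsb, +1.45 ± 0.12) and 1 lower.

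Thymus-labelled arrays (8.62% higher, 5.19% lower) had 7 core proteins higher, led by Bgn (+2.37 ± 0.14), and 2 other enzymes, led by the dermatan epimerase-like gene Dsel (+1.32 ± 0.17). Mammary gland (9.55% and 3.22%) had 6 core proteins higher, led by Dcn (+2.17 ± 0.12), with Dsel (+1.66 ± 0.16) and Hyal1 (+1.28 ± 0.14). In thyroid (6.44% and 7.06%) 2 core proteins were higher, led by Vcan (+1.79 ± 0.18), and the donor gene Ugp2 (+2.13 ± 0.18), and Arsb was lower (-1.28 ± 0.14). In lymph node (11.3% and 8.72%) 3 core proteins were higher, led by Cd74 (+2.90 ± 0.15), and 1 was lower; Gusb was higher (+1.23 ± 0.14), and 2 donor genes, led by Ugdh (-1.48 ± 0.17), and Extl2 (-1.72 ± 0.19) were lower. In testes (8.41% and 20.1%) 7 core proteins were lower, led by Cd44 (-3.09 ± 0.21), and 1 higher. Lower there were also 4 donor genes, led by Ugdh (-2.98 ± 0.17), 3 heparan genes, led by Ndst1 (-1.45 ± 0.11), and 2 degradation genes, led by Arsb (-1.41 ± 0.14). The within-array difference Chst11 minus Chst3 shifted from 3.003 ± 0.44 (SD, n = 9) in brain to -2.09 ± 1.10 (n = 6) in lymph node, and in kidney from 2.52 ± 0.65 in males to 0.47 ± 0.11 in females. These shifts are a description with no test.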

How the data were processed

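RNA from 56 of 60 arrays was used. The authors deposited RMA output on the log2 scale, per the submitters' processing notes (version not given); whether all arrays were normalized together is not given in the sources used here. RMA pulls arrays towards one distribution, so a shift of all genes would not be seen. The values were used as deposited. The number of arrays limits the precision, and where nothing says that samples are separate cultures or litters, p-values measure the spread between these animals.

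Probe sets were named through their RefSeq identifiers and the RefSeq table (GRCm38.p6): 963 of 1246 got a symbol and were tested, and 283 did not. The 9 genes had 1 probe set each. limma 3.58.1 (R 4.3.3) gave 2-sided moderated tests with Benjamini-Hochberg adjustment over the 963 within each comparison. A call needed an adjusted p under 0.05, and for tissues a log2 difference of at least 1. The animal was the replicate (2 brain arrays of mouse 9099, 1 of them left out) and a random block across tissues (correlation 0.0189). Same-numbered arrays come from the same animal, per the labels. Sex comparisons used the sex term; those outside kidney and mammary gland, and the differences between tissues, were added after seeing the data. The comparison of kidney and thyroid is one fit of both tissues. The 9 genes were named in every tissue, and in genotype, C57 and sex comparisons the called ones and the 2 with the smallest p. Of each pathway list the called gene with the largest absolute difference in a tissue was named, and for each member the 2 other genes with the highest Pearson correlation over 8 tissue means; 1 of these is not reported here. The members, pathway and marker lists, and the threshold for arrays that stand apart were chosen with earlier results of these data known. The fits were tested on simulated data: of probe sets changed 2-fold between the sexes, 80% were called in kidney and 64% in thyroid, and in KO intestine 10% of those changed 2-fold by genotype. The simulation gave each probe set 1 spread over all groups, so these shares do not measure recovery at each tissue's own spread. Alternatives were all arrays as labelled, 2 renormalizations, other probe-set filters, other sets of tissues or animals, no sex term, no block, and each animal left out.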

Additional observations from a re-analysis of the deposited data

Results flagged for a closer look

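Among 4 WT kidneys, the female N9686 stood apart from the 3 males, with Chst11 at 6.65 (others 9.10 to 9.32), Chst7 at 5.36 (others 8.67 to 8.96) and Csgalnact2 at 6.38 (others 6.11 to 6.14); it lay with the DKO females. Among 5 DKO kidneys, N5895 had the highest Chst3, 6.34 against 6.12 to 6.16 in the others. Chance gives such a gap in about 1 in 20 groups, and 36 combinations of gene and group were looked at.

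The sex difference (male minus female) was larger in kidney than in mammary gland by 2.37 for Chst7, 1.80 for Chst11 and 1.23 for Csgalnact1. Set against thyroid, the kidney difference was larger by 3.93 for Chst11, 2.58 for Chst7 and 1.14 for Csgalnact1, and lower by -0.72 for Csgalnact2. Kidney and thyroid come from different lines, and the thyroid values rest on 2 females.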

How the results depend on the processing

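Each comparison was refitted under the alternatives, and 346 recomputed counts of called genes stayed within 1.5 times the reported count while 9 did not. Most of the reported counts were 0, for which staying means staying at 0, so the total says little about the counts above 0. The genes called lower in a tissue became 13 against the other 3 tissues of the line only and 11 in males only (a choice made after seeing the data). The share of all gene and tissue pairs called lower was not counted in these refits. With a replicate block over all groups of the line, 1 gene was called in KO thyroid instead of 0, and 1 of all probe sets. Without the replicate block 10 genes were called higher and 6 lower in a tissue, and 3 in the kidney against mammary gland difference. No other call of the 9 genes changed with the block. Leaving out 1 animal gave 0 to 2 called genes in DKO testes (2 without N9700) and 1 to 5 in the sex difference of kidney against mammary gland. It gave 0 to 1 in WT against C57 brain (without 9094) and 0 to 2 in the sex difference of brain (without 9361). In lymph node the refit without 9093 left 1 female and is given above by its size only. Counts over all probe sets rose too in testes without N9700 and in brain without 9361, as given above. For the other refits named here that share is not given. Signs changed for 4 values: Chst11 in kidney was -0.62 in females only, and with all arrays as labelled Chpf (-0.40) and Chst11 (-0.48) turned in KO intestine and Chst15 (-0.14) in DKO thymus; none of the last 3 was called under either choice. For these 3, the refit differed only in the arrays added. WT intestine gained that of 9099 (Chpf 8.96, Chst11 8.19), and WT thymus those of N3738 and N3740 (Chst15 5.77 and 6.24). No cause of the signs was tested beyond this. In tissue comparisons Csgalnact1 in thymus fell to 0.97 with all arrays, Csgalnact1 in brain to 0.97 in wild-type animals only, Chst7 in intestine to -0.99 after quantile normalization, Chsy1 in thyroid to -0.98 against the other 3 tissues of the line only, and Chst3 in thyroid to -0.75 in females only, each under the size threshold. Counts over all probe sets moved in 90 of the refits; DKO mammary gland went from 0 to 55 with a replicate block over all groups of the line, with 0 of the 9 genes called; the sex difference in kidney, 87 probe sets, came to 44 without N5892, 49 without N9686 and 55 without N5891, and that in thyroid, 42, to 10 without 9093, 26 with median centring and 22 after quantile normalization. Without an animal, KO against WT intestine could not be fitted. No member had another probe set, so that alternative was not run. With 1 WT thymus and 2 WT mammary arrays, differences between genotypes there have the least precision.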

Other observations

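The 4 arrays left out were picked because they depart from their label, and the chondroitin sulfate genes were read on them as a description. The brain-labelled array of mouse 9099 lay outside the range of the other brains for 9 of 9 genes, with Chst11 at 6.02 (other brains 8.25 to 9.35) and Csgalnact1 at 5.01 (6.82 to 7.99). Its intestine-labelled array lay outside the other intestines for 6 of 9, with Chst11 at 8.19 (5.61 to 7.10). The thymus-labelled arrays of N3738 and N3740 lay outside for 5 and 6 genes, with Csgalnact2 at 5.47 and 5.61 (7.14 to 7.69 in the other 6). Over all 963 named probe sets, 71% lay outside on the brain-labelled array, 64.1% on the intestine-labelled array, 67.1% on that of N3738 and 75% on that of N3740. Lying outside was thus common to most probe sets on these arrays and not particular to the 9 genes.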
